A study of Mus musculus with 12 samples.

Results

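Casp8, Aven and Birc6 are 3 regulators of apoptosis, an initiator caspase and a pair of apoptosis inhibitors, whose transcripts were measured in mouse keratinocytes with and without added deltaNp63alpha. They are 3 of 6774 named genes on the arrays, and the platform annotation listed 4 of the 9558 probes for them. A single probe named Casp8 alone, one named Birc6 alone, one named Aven alone, and one listed Aven together with Ryr3. The genes were chosen with their high calcium ratios known. Aven and Birc6 had been listed as higher there, while the values that led to the choice of Casp8 are not known in full. All 3 are among the 101 of 7263 rows (1.39%) that limma called in high calcium at a Benjamini-Hochberg adjusted p under 0.05. Their high calcium values are therefore given as a description without a test, and nothing is read from that share. The count itself depended on the fit: it was 0 with a variance trend and robust estimation, 1 with arrays scaled to the same spread and 0 with the deposited signs kept.

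Apoptosis is executed by caspases, proteases that are made as inactive precursors. Caspase 8, the product of Casp8, is the initiator of the death receptor route: it is activated in complexes that form at ligand-bound receptors of the tumour necrosis factor family, it cleaves the executioner caspases, and it also holds back necroptosis, which in the epidermis is known to limit skin inflammation. Aven binds the survival protein Bcl-xL and the apoptosome scaffold Apaf1 and so inhibits caspase activation on the mitochondrial route. Birc6, also called Bruce or Apollon, is a very large member of the inhibitor of apoptosis family that carries a BIR domain and a ubiquitin-conjugating domain.

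The RNA came from primary skin keratinocytes of C57Bl/6NCr mice, which received an adenovirus 41 h before harvest. The virus encoded beta-galactosidase in control cells and otherwise deltaNp63alpha, a p63 isoform that lacks the amino-terminal transactivation domain. During the last 24 h the calcium of the medium was 0.05 mM (low calcium) or 0.12 mM (high calcium, which starts keratinocyte differentiation). Each of 12 spotted arrays compared both RNAs of 1 calcium level; in 3 repeats per level a forward array carried deltaNp63alpha in Cy5 and a reversed array carried it in Cy3, and these form 1 dye-swap pair. The control cells thus also carried an adenovirus, and no array compared calcium levels. The repeats are described as technical, so p-values measure only the spread between these arrays.

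Values are log ratios. They are read as log2, a base that is assumed, and the fold values rest on it. Which dye is the numerator is not stated, so reversed arrays were turned under the usual reading of Cy5 over Cy3, and the direction given below rests on that assumption and is not settled. With Cy3 as the numerator every sign below would turn. As deposited, forward and reversed arrays of a pair correlated positively across rows in 6 of 6 pairs, with Pearson r from 0.12 to 0.71, so much of what the arrays hold did not turn with the dyes. The labels name deltaNp63alpha as channel 2 on every array, which would fit signs that need no turning. The targeted gene did not settle it: the Trp63 probe was below 0 in 3 of its 4 pairs (pair log2 ratios from -0.78 to 0.45), and whether it detects the transgene is not known here. The mAdb experiment numbers of the arrays fall into 2 ranges. The first holds repeat 1 of low calcium together with repeats 1 and 2 of high calcium, with 7869 to 9096 probes measured per array, and the second holds the remaining 3 pairs, with 3366 to 6974. Across genes, which are not independent replicates, pair ratios correlated with Pearson r from 0.50 to 0.64 among the pairs of the first range (6880 to 7598 rows), and from -0.10 to 0.10 between low calcium repeat 2 and every other pair (2088 to 4290 rows). Ratios hold no levels, so the labelled cell type could not be checked against its markers. Of 12 keratinocyte markers 8 had a row. In high calcium limma called 2 of 7 tested, against 1.39% of all rows: Krt10, an early differentiation keratin, was lower (log2 ratio -1.57, adjusted p = 0.00821), and so was Flg, which encodes the late differentiation protein filaggrin (-1.93, adjusted p = 0.0351). The other 5 had log2 ratios from -0.26 to 0.22. Among them Lor, also a gene of late differentiation, was at -0.15 from 3 pairs (limma adjusted p = 0.819). The Krt10 value rests on 2 pairs, so the differentiation markers did not all fall. In low calcium 0 of 4 tested were called, against 0.409% of all rows, with Flg at -1.51 (limma adjusted p = 0.191) and Lor at 0.0003. Krt10 and Flg moved in the same high calcium arrays as Casp8, Aven and Birc6, and their part in those ratios was not tested. Of 19 markers of fibroblasts, melanocytes, leukocytes and endothelial cells, 13 had a row. None of those tested was called by limma in either level, against the same shares of all rows, with log2 ratios from -0.18 to 0.38 (11 tested, low calcium) and from -0.35 to 0.33 (12 tested, high calcium).

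On the GRCm38.p6 annotation Casp8 lies at chr1:58795233-58847503, Aven at chr2:112492883-112631253 and Birc6 at chr17:74528254-74703356. Only 100 bases separate the annotated span of Aven from that of Ryr3, the neighbour that shares a probe with it. The sequences below are the bases before an annotated start, printed because Aven and Birc6 were higher together and Casp8 was lower. They are RefSeq sequences on the plus strand, 5′ to 3′, and capitals mark CpG dinucleotides. For Aven and Birc6 they end at the base before the annotated gene. The Casp8 stretch, chr1:58802252-58802501, lies inside the annotated gene before one of its later starts. The Aven stretch is chr2:112492714-112492882 and the Birc6 stretch is chr17:74528045-74528253.
Casp8: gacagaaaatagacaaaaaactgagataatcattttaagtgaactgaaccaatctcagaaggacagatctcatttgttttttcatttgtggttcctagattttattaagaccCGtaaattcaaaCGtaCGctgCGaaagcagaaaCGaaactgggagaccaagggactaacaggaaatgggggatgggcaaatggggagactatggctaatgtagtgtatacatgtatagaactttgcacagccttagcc
Aven: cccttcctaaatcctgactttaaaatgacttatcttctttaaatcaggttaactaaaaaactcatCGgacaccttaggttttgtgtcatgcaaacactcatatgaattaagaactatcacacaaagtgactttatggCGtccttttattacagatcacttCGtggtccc
Birc6: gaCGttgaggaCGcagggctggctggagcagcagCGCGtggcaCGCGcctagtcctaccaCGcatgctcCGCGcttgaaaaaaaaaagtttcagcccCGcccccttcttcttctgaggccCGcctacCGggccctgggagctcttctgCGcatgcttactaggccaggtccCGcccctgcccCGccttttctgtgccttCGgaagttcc

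The printed stretches hold 5 CpG for Casp8 (250 bases), 3 for Aven (169 bases) and 16 for Birc6 (209 bases). The table gives 7 windows of 250 bases for the 3 genes, each before an annotated transcript start, and some reach past the start of the annotated gene. The Birc6 window held 18 CpG and the Casp8 window 5. Of the 5 Aven windows the most upstream held 18, most of them past the annotated gene start, and the other 4 held 1 to 5. The median was 6 over 32851 such windows of all genes in the table. The p53-family half-site, the decamer bound by p53 and its relatives, was searched by its degenerate consensus, which reads the same on both strands. It was found in 1 of the 7 windows of these genes, as GAGCATGCTT at chr2:112559619-112559628, before a later start of Aven, and in 7.13% of all windows. A match is a string of letters and not a measured binding site, and its absence from the other windows says nothing about binding.

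Aven, the inhibitor that binds Bcl-xL and Apaf1, was higher with deltaNp63alpha in every high calcium pair. As deposited, its forward arrays in high calcium read 1.39, 0.95 and 1.46 in repeats 1 to 3, and its reversed arrays read -1.47, -0.99 and -1.58. The sign thus turned with the dyes in each repeat, and the sizes on both arrays of a pair were close. The pair log2 ratios were 1.43, 0.97 and 1.52, a mean of 1.31 ± 0.29 (SD, n = 3 pairs) or 2.47-fold. In low calcium the forward arrays read 1.69, -0.10 and -0.04, and the reversed arrays read -1.68 in repeat 1 and -0.10 in repeat 3, with no value in repeat 2. Low calcium repeat 1 therefore resembled the high calcium pairs, with a pair log2 ratio of 1.69, while repeat 3 lay at 0.03.

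Aven had been listed as higher in high calcium. Earlier results of these data were known when it was chosen, so low calcium is not a fully independent check. For Aven in low calcium the mean pair log2 ratio was 0.86 ± 0.30 (SE from limma, n = 2 pairs), above 0 in 2 of 2 pairs. It did not pass (limma adjusted p = 0.333, 0.409% of 4646 rows called); the adjusted p ranged from 0.0851 to 0.881 over the alternatives. The unadjusted 95% interval of the ratio was 0.21 to 1.51. The fit took both levels together, so this SE and interval also draw on the spread of the high calcium pairs, whose SD was 0.29, while the SD of the low calcium pairs was 1.17. With each level fitted alone the limma adjusted p was 0.110 for Aven and 0.200 for Birc6. The Aven value rests on repeat 1: without it, 0.03 was left from a single pair, and without repeat 3, 1.69. It was 0.52 on forward arrays alone (limma adjusted p = 0.329) and 0.54 with incomplete pairs kept (limma adjusted p = 0.744).

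Birc6, the giant inhibitor of apoptosis protein, was also higher in every high calcium pair. Its forward arrays in high calcium read 1.59, 0.76 and 0.83 as deposited and its reversed arrays -0.97, -0.99 and -1.67. Every forward value was above 0 and every reversed value below, so the orientations did not overlap. The pair log2 ratios were 1.28, 0.88 and 1.25, with a mean of 1.13 ± 0.22 (SD, n = 3 pairs) or 2.19-fold. In low calcium the forward arrays read 1.89, -0.77 and -1.33 and the reversed arrays -0.80, -2.16 and -1.13. Only repeat 1 changed sign with the dyes, and both arrays of repeats 2 and 3 were below 0 whichever RNA carried Cy5.

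The low calcium pair log2 ratios of Birc6 were 1.35, 0.69 and -0.10, with a mean of 0.65 ± 0.22 (SE from limma, n = 3 pairs), above 0 in 2 of 3 pairs. It did not pass (limma adjusted p = 0.312; unadjusted 95% interval 0.18 to 1.11). The adjusted p ranged from 0.0323 to 0.944 over the alternatives. The log2 ratio was 1.02 and passed narrowly without low calcium repeat 3 (limma adjusted p = 0.0497), and it was 0.30 (limma adjusted p = 0.796) without low calcium repeat 1. On reversed arrays alone it passed at 1.36 (limma adjusted p = 0.0323), a setting that called 330 of 5340 rows in low calcium. On forward arrays alone it was -0.07 (limma adjusted p = 0.944).

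**Figure D1:**
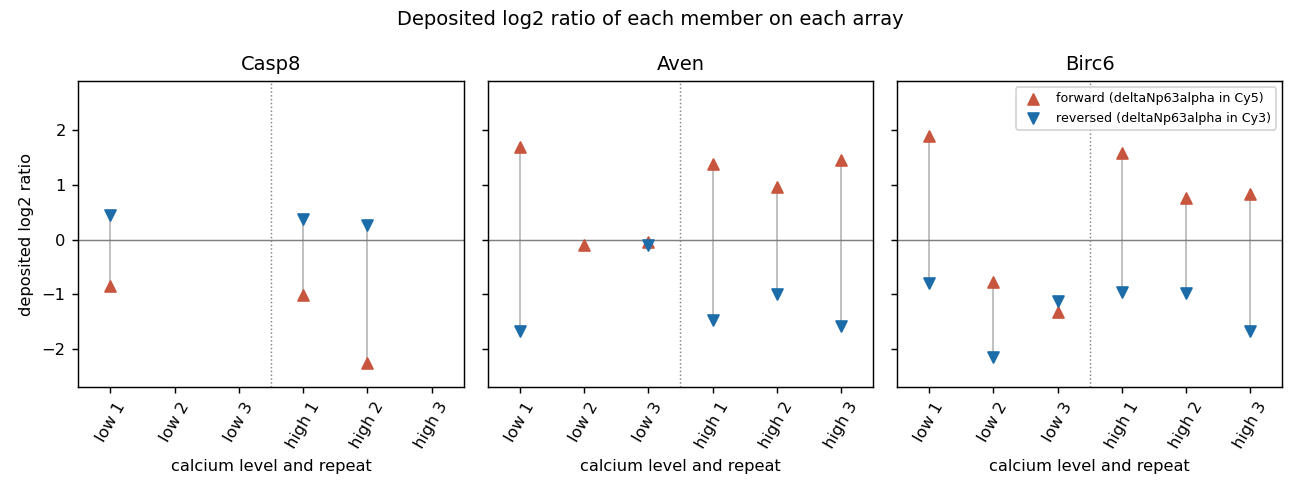
Deposited log2 ratio (y axis) of Casp8, Aven and Birc6 on each array, by calcium level and repeat (x axis); upward triangles are forward arrays, downward triangles are reversed arrays and grey lines join the arrays of a pair. Aven and Birc6 lie above 0 on forward and below 0 on reversed arrays in low calcium repeat 1 and in all high calcium repeats. Casp8 lies the other way round wherever it has a value, with forward values larger in size than reversed values.

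Casp8, the initiator caspase, was lower with deltaNp63alpha wherever it was measured. It had values on 6 of 12 arrays, all in the first number range, and all 6 lay below 0 after turning. In high calcium the forward arrays read -1.02 and -2.26 as deposited in repeats 1 and 2, and the reversed arrays 0.37 and 0.27. Signs turned with the dyes, but the forward values were larger in size than the reversed values of the same pair. The pair log2 ratios were -0.69 and -1.27, a mean of -0.98 ± 0.40 (SD, n = 2 pairs) or 1.97-fold lower. In low calcium repeat 1 the arrays read -0.84 and 0.46, a pair log2 ratio of -0.65 from 1 pair. The values that led to the choice of Casp8 are not known in full, so no test is given for it at either level. Of 6699 rows measured on all 6 arrays of the first range, 1225 (18.3%) were, like Casp8, measured on none of the second.

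Set against all rows of the same pair, Aven ranked 37th highest of 7185 in high calcium repeat 1, 11th of 8214 in repeat 2 and 14th of 2421 in repeat 3, and 32nd of 7893 in low calcium repeat 1. Birc6 ranked 56th, 20th and 22nd in the high calcium pairs and 57th in low calcium repeat 1. Both thus lay within the top percentile in these 4 pairs. In low calcium repeat 3 they did not stand out, since 59.0% of rows lay below Aven and 45.5% below Birc6. In low calcium repeat 2, 90.6% of rows lay below Birc6. Casp8 ranked 172nd from the bottom of 7185 in high calcium repeat 1, 55th of 8214 in repeat 2 and 388th of 7893 in low calcium repeat 1. With the deposited signs kept, Aven did not stand out in any pair, with 42.0% to 47.5% of rows below it. Birc6 then had 96.5% of rows below it in low calcium repeat 1 and 84.4% in high calcium repeat 1, but 8.74% to 34.5% in the other 4 pairs, and Casp8 had 6.33% to 30.8%. The ranks therefore rest on the turning of the reversed arrays, describe values known when the genes were chosen and support nothing further.

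**Figure D2:**
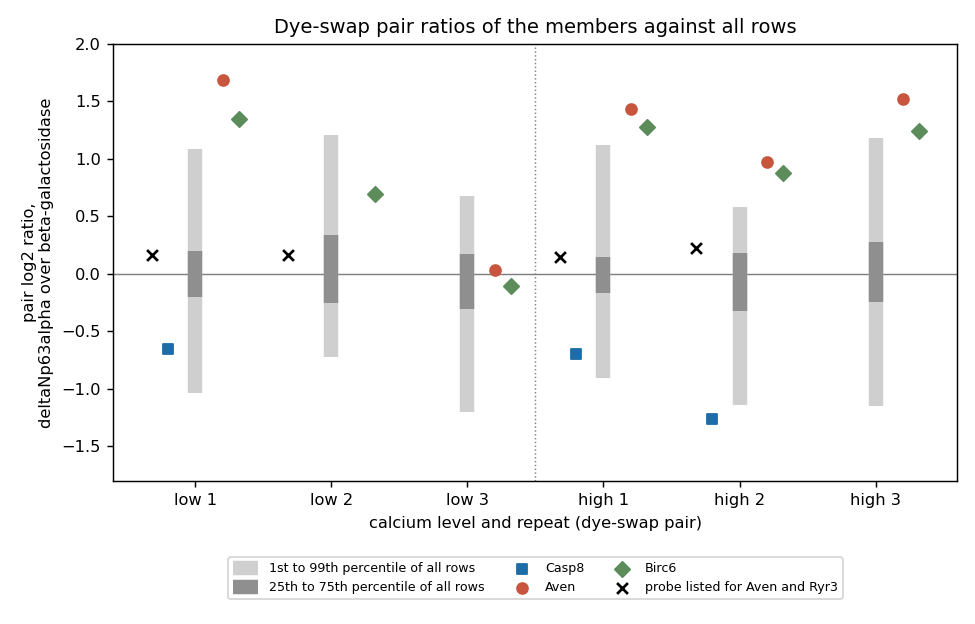
Pair log2 ratio of deltaNp63alpha over beta-galactosidase (y axis) for each dye-swap pair (x axis), with light bars from the 1st to the 99th percentile of all rows and dark bars from the 25th to the 75th. Aven and Birc6 lie above the light bar in low calcium repeat 1 and in the 3 high calcium repeats, both lie near 0 in low calcium repeat 3, and the probe listed for Aven and Ryr3 stays between 0.15 and 0.22.

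The probe listed for both Aven and Ryr3, a ryanodine receptor gene, did not show the size seen with the Aven probe. Its pair log2 ratios were 0.16 and 0.17 in low calcium repeats 1 and 2 and 0.15 and 0.22 in high calcium repeats 1 and 2. In the 3 pairs where both probes were measured, the Aven probe read 1.69, 1.43 and 0.97. The probes therefore had the same sign in each of these pairs, with the larger ratio always on the Aven probe. The shared probe's ratios there, 0.161, 0.146 and 0.223, lay below the median size over all rows (0.202, 0.153 and 0.2295), so little can be read from their sign. In low calcium repeat 2 both arrays of the shared probe read below 0 as deposited (-0.52 and -0.85), so its sign did not turn with the dyes. Which transcript the shared probe detects was not tested, and it was kept out of the Aven value.

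The mean of the deposited forward and reversed values of a pair keeps what does not turn with the dyes, and it was compared with the pair ratio. For Aven this shared part was between -0.07 and 0.01 in the 5 complete pairs. The median size over all rows ranged from 0.23 to 0.61 by pair. For Birc6 it was 0.55, -1.46 and -1.23 in low calcium repeats 1 to 3 and 0.31, -0.11 and -0.42 in high calcium. In low calcium repeats 2 and 3 it was thus larger in size than the pair ratio itself. For Casp8 the shared part was -0.19 in low calcium repeat 1 and -0.32 and -0.99 in high calcium repeats 1 and 2, always smaller in size than the pair ratio. If the deposited signs needed no turning, the shared part would be the effect. Under that reading the high calcium log2 ratios were -0.04 for Aven, -0.07 for Birc6 and -0.66 for Casp8, and the low calcium ones were -0.03, -0.71 and -0.19.

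**Figure D3:**
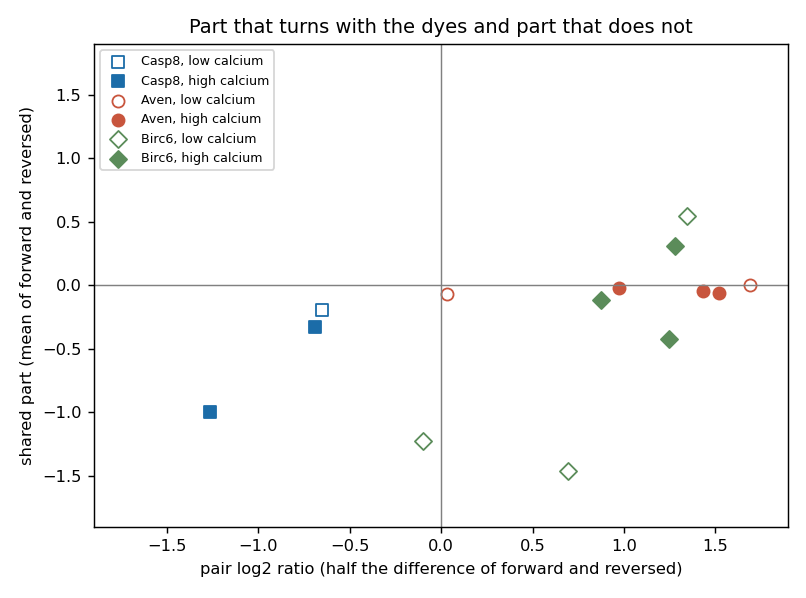
Shared part of each dye-swap pair, the mean of its deposited forward and reversed log2 ratios (y axis), against the pair log2 ratio, their difference divided by 2 (x axis), for each member; open symbols are low calcium and filled symbols high calcium. Aven lies along the horizontal line, while Birc6 in low calcium repeats 2 and 3 lies far below it at -1.46 and -1.23.

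Between calcium levels, the mean log2 ratio in high minus low calcium was 0.45 for Aven, 0.49 for Birc6 and -0.33 for Casp8. These differences use high calcium values that were known when the genes were chosen, and they were not tested. For Aven and Birc6 the low calcium pairs spanned 0.03 to 1.69 and -0.10 to 1.35, ranges that overlap those of the high calcium pairs. The number ranges of the arrays moved with the level: the first range gave means of 1.36 for Aven and 1.17 for Birc6 (n = 3 pairs each), and the second gave 0.78 (n = 2) and 0.61 (n = 3). Within the second range, Aven was at 1.52 and Birc6 at 1.25 in high calcium repeat 3, against 0.03 and -0.10 in low calcium repeat 3. Within the first range the order was the opposite: low calcium repeat 1, with Aven at 1.69 and Birc6 at 1.35, lay above both high calcium pairs, with Aven at 1.43 and 0.97 and Birc6 at 1.28 and 0.88. The part of the array sets in the difference between levels was not tested.

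The named gene with pair values closest to those of Aven was Birc6, with a root mean square difference of 0.22 on the log2 scale over the 5 pairs of Aven, among 1234 genes measured in all of them. A830082K12Rik (0.45) and Brip1os (0.54) followed. For Birc6, over 6 pairs and 1114 genes, the closest were Tfap2c, which encodes a transcription factor of the AP-2 family (0.53), A830082K12Rik (0.56) and Rcor1, which encodes a corepressor (0.59). Aven lacked one of these pairs and could not enter. For Casp8, over 3 pairs and 5207 genes, the closest were Amotl2, an angiomotin family gene (0.10), Tmem45a (0.13) and Eprs, a tRNA synthetase gene (0.14). All of these are descriptions over few pairs. The pairs include the high calcium ones, in which Aven and Birc6 had both been listed as higher. The closeness of Birc6 to Aven is therefore partly built in and supports nothing further.

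The other genes of the pathway were described from a list. This list of 68 apoptosis genes in 6 groups had 35 genes on the arrays. In low calcium 0 of 16 tested genes passed (limma; 0 at an unadjusted p under 0.05), against 0.409% called and 9.45% at an unadjusted p under 0.05 over all rows tested, with log2 ratios from -0.32 to 0.32 and a median of -0.05, against 0.02 over all rows tested. In high calcium 0 of 30 passed (limma; 3 at an unadjusted p under 0.05, all lower), against 1.39% called and 11.6% at an unadjusted p under 0.05 over all rows, with log2 ratios from -0.61 to 0.22 and a median of -0.04, against 0.01 over all rows. At these shares a list of this size, and each group within it, would hold few calls or none, so the counts of 0 here and below are not a result about the pathway. In these mixed RNA samples, fewer cells of a type and less RNA per cell cannot be told apart.

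Among death ligands, receptors and adaptors, which feed caspase 8, 9 genes were tested in high calcium, with log2 ratios from -0.17 to 0.22. Fadd, the adaptor that recruits caspase 8, had pairs at 0.22 and -0.23; it and Casp9 below were picked for their roles after their values were seen. Tnf itself was at 0.22, its receptor gene Tnfrsf1b at 0.21, the adaptor gene Traf1 at 0.22 and Cradd, an adaptor of caspase 2, at 0.20 (limma adjusted p from 0.740 to 0.774 for these 4). Of the 9, 0 passed (limma), against 1.39% of all rows.

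Of the other caspases, 6 were tested in high calcium and 5 of their means lay below 0; 0 passed, against 1.39% of all rows (smallest limma adjusted p = 0.630). Casp1, an inflammatory caspase, was at -0.31, Casp2 at -0.20, Casp6, an executioner, at -0.21 and Casp4, another inflammatory caspase, at -0.15. Casp9, the initiator of the mitochondrial route, had pairs from -0.30 to 0.36 and a mean of 0.01. In low calcium Casp4 was at 0.09 from pairs. On forward arrays alone limma called it lower (-1.24, adjusted p = 0.0367), where 33 of 6471 rows were called. On reversed arrays alone limma called it higher (1.44, adjusted p = 0.0422), where 330 of 5340 rows were called. Its orientations thus opposed each other.

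In high calcium 0 of 4 death-promoting Bcl2 family genes, 0 of 4 survival genes and 0 of 3 genes of the mitochondrial route passed (limma), against the same 1.39%. Bnip3l, a death-promoting relative of Bcl2, had the second smallest p of the list, at -0.57 from pairs at -0.46 and -0.69 (limma adjusted p = 0.246). Pmaip1, which encodes Noxa, was at -0.36, Bok at -0.07 and Bad at 0.04. Of the survival genes, Mcl1 was at -0.29, Bcl2l1, which encodes the Aven partner Bcl-xL, at 0.11, Bcl2l2 at 0.10 and Bcl2 at 0.01. Cycs, which encodes cytochrome c, was at -0.48 from pairs at -0.19 and -0.76 (limma adjusted p = 0.400), Htra2 at -0.33 and Endog at 0.03.

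Of the relatives of Birc6, 4 were tested in high calcium. Birc3, an inhibitor of apoptosis that acts in tumour necrosis factor signalling, had the smallest p of the list, at -0.61 from pairs at -0.35 and -0.87 (limma adjusted p = 0.218). Its only low calcium pair was at 0.25. Birc2, its close relative, was at 0.11, Birc5, which encodes survivin, at 0.17 and Naip5 at -0.01.

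**Figure D4:**
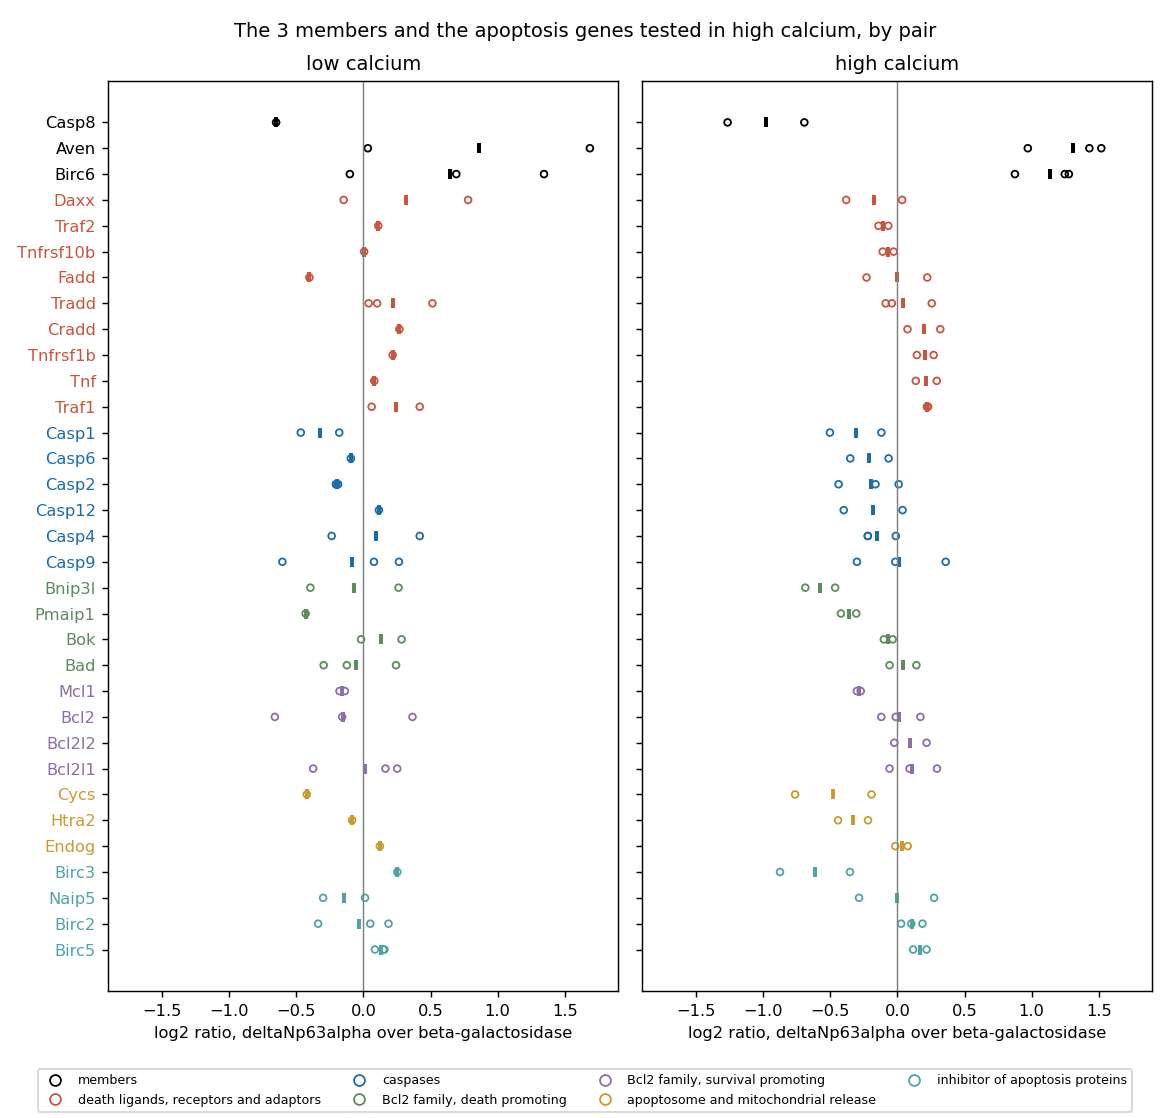
Log2 ratio of deltaNp63alpha over beta-galactosidase (x axis) for the 3 members and the 30 list genes tested in high calcium (y axis), with low calcium on the left; open circles are dye-swap pairs, vertical ticks their means and colours the gene groups. The means of the list genes lie between -0.61 and 0.22 in high calcium, and their single pairs between -0.87 (Birc3) and 0.36 (Casp9). Aven and Birc6 were chosen by their high calcium log2 ratios, while the values that led to the choice of Casp8 are not known in full.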

How the data were processed

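The authors deposited log2 ratios of both dyes for 12 two-colour spotted cDNA arrays. Per the labels' protocols, Genisphere reagents were used for dye labelling. No source names the log base; base 2 was assumed from values between -7.88 and 4.60. For the scanner, the background correction, the normalization and the spot filter, the method is not given in the sources used here. Array medians lay within 0.0005 of 0.

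In the platform annotation 7457 probes had 1 gene symbol, 481 had several and 1620 had none and stay unnamed. For 7368 of the 7457 the symbol was looked up through the gene ID (GRCm38.p6), whether or not it changed. Each array was centred on its median and probes of 1 symbol were averaged, giving 6774 named genes in 8875 rows. A pair value is forward minus reversed, divided by 2, and needs both arrays. limma 3.58.1 (R 4.3.3; lmFit, eBayes) fitted both levels together over all rows. Rows with at least 2 pairs at a level were tested there, with a Benjamini-Hochberg adjusted p under 0.05 called. The number of arrays limits the precision. The fit was tested on simulated data with independent noise and the same change in every pair. The real pairs differed more than that, so this test does not bear on the direction or on differences between pairs.

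The genes, the list and the turning of reversed arrays were chosen with earlier results of these data known. Named list genes are those called and up to 4 per group of smallest high calcium p. The nearest genes have the smallest root mean square difference over all pairs of the member. Promoter sequences are RefSeq's. Alternatives covered orientation, single orientations, centring, scale, variance prior, incomplete pairs, levels fitted alone, 3 pairs needed, blocks, separate probes and each pair left out.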

Additional observations from a re-analysis of the deposited data

How the results depend on the processing

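With the deposited signs kept, Aven lay near 0 (-0.0325 in low and -0.0404 in high calcium), so its effect was lost and only its sign reversed. Birc6 reversed to -0.71 in low calcium and lay near 0 (-0.0731) in high calcium, and Casp8 moved to -0.19 in low calcium. With those signs limma called 3 of 16 tested list genes in low calcium (Casp4 lower, Bad and Bcl2 higher), against 763 of 4646 rows. On forward arrays alone Birc6 was -0.069 in low calcium and Casp8 was -1.64 in high calcium. There 1 of 25 tested list genes was called in low calcium, Casp4, against 33 of 6471 rows. On reversed arrays alone Birc6 in low calcium was 1.36 and Casp8 in high calcium -0.32. Again 1 list gene, of 16 tested, was called in low calcium, also Casp4, against 330 of 5340 rows. With 1 pair left out, Birc6 in low calcium ranged from 0.30 to 1.02, Aven in high calcium from 1.20 to 1.47 and Birc6 there from 1.06 to 1.26. The same-numbered pairs of both levels deviated together with r of -0.03, -0.11 and 0.20 (1381 rows), and only repeat 3 correlated best with its own number, so the numbers were not taken as pairing. With the replicate block Casp8 in low calcium was -1.22, a fitted value from 1 pair, Birc6 there stayed at 0.65 (limma adjusted p = 0.0847), and 59 rows were called in low calcium in place of 19; it changed no call of a list gene, nor of Aven or Birc6 in low calcium. Over all rows the counts were 0 at both levels with a trended, robust variance and with incomplete pairs kept, 49 and 236 with each level fitted alone, and 0 and 1 with arrays scaled to the same spread, against 19 and 101. They were 763 and 0 with the deposited signs, 33 and 0 on forward arrays, 330 and 1 on reversed arrays, 47 in low calcium with the number range as a block, 33 in high calcium where 3 pairs were needed, and 6 to 51 and 33 to 151 with 1 pair left out. Some settings also tested fewer rows. In high calcium 33 of 2029 were called where 3 pairs were needed and 33 of 2291 without high calcium repeat 1, against 101 of 7263. In low calcium 6 of 2526 were called without low calcium repeat 1, against 19 of 4646. The high calcium list count stayed at 0 under all 18 alternatives. The causes were not tested. Few arrays, and Casp8 on 6 of them, limit all values.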
